A study of Drosophila melanogaster with 36 samples.

Results

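The 36 genes described here encode parts of the synapse in Drosophila melanogaster: general neuronal proteins, the vesicle and fusion machinery, the active zone, potassium channels, transmitter synthesis and transport, and adhesion, scaffold and cytoskeletal proteins. They were chosen by FlyBase symbol, with earlier results of these data known, so their shares set against all genes tested are descriptions. All 36 were found among the 12842 genes listed for head. They were also all among the 11197 head genes that passed the filter on low values (10 normalized counts or more in 3 or more of the 12 head libraries). Females were reared as larvae on 100% SYA, a sugar, yeast and agar food (M females), or on 120% SYA (H females), and as adults both were kept on a common food and mated repeatedly. Survivors were collected once 10% (RNA-1) or 60% (RNA-2) of a cohort had died, so the time points are relative ages, and RNA-2 females are the survivors of their cohort. Head, fat body (the abdomen without gut and ovaries) and ovary were dissected, and each combination of tissue, diet and time point has 3 libraries, 36 in all. Each library was a pool of 11 or 12 females, so p-values measure the spread between pools. All values are normalized counts (estimated counts per gene after normalization by the authors, whose exact steps are not given in the sources used here). Changes are differences on the log2(value + 1) scale, RNA-2 minus RNA-1, with standard errors (SE) from a limma model of all 12 libraries of a tissue, and calls are those below a Benjamini-Hochberg adjusted p of 0.05 over all genes tested.

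At a chemical synapse, an action potential shaped by potassium channels opens calcium channels at the active zone, and calcium triggers the fusion of transmitter-filled vesicles with the membrane. Fusion is driven by SNARE proteins, one on the vesicle and others on the plasma membrane, which are held ready by complexin and released by the calcium sensor synaptotagmin. In the fly brain acetylcholine is the main excitatory transmitter, GABA the main inhibitory one, glutamate acts at the nerve-muscle junction and in the brain, and dopamine, serotonin, octopamine and histamine act in smaller groups of cells.

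Normalized counts in the head libraries summed to between 56411248 and 70637997. The neuronal markers elav, nSyb, Syt1, brp and nrv3 were high in every head library, and no marker of photoreceptors, glia, fat body, muscle or haemocytes was at 0 in any of them, so the libraries hold the whole head and not brain alone. The summed level of 12 photoreceptor markers lay between 2502090 and 3142478 in the 6 RNA-1 libraries and between 715479 and 1021185 in the 6 RNA-2 libraries, and all 12 were downregulated with age in M and in H. The summed level of 10 fat body markers lay between 6861263 and 11758730 at RNA-1 and between 2072931 and 3625488 at RNA-2, and 7 of them were downregulated and 1 upregulated in M, and 5 and 2 in H. The ranges over all 12 libraries were 136343 to 181492 for 8 glial markers, 216140 to 313390 for 8 muscle markers and 28615 to 48357 for 5 haemocyte markers. Of the glial markers 2 were called higher and 1 lower in M and 2 higher in H, of the muscle markers 2 were called higher in M and 1 in H, and of the haemocyte markers none was called. The part of these cell types in the values below was not tested, and in pooled tissue fewer cells of a type and less RNA per cell cannot be told apart.

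The M RNA-1 group was not uniform for the 36 genes. Replicates 1 and 3 of M RNA-1 were low in long transcripts. Across the 11116 tested genes with an annotated length, log2 transcript length was correlated with a gene's deviation from its mean over the 12 libraries. The correlation was -0.386 and -0.478 in replicates 1 and 3, against 0.173 in replicate 2. It lay between 0.00645 and 0.0328 in M RNA-2 and between 0.0898 and 0.129 in H RNA-2. In H RNA-1 it was 0.0203 in replicate 1 and 0.205 in replicates 2 and 3. Replicate 2 of M RNA-1 was thus relatively higher in long transcripts than M RNA-2, and H RNA-1 was not uniform. The part of this in the changes with age was not tested. The synapse genes are long, with a median transcript of 4569 bases against 1837 over the tested genes. Replicate 2 exceeded the mean of replicates 1 and 3 for all 36 genes, by 1.57-fold at the median, from 1.11-fold for Tdc2 to 3.27-fold for Syx1A. It lay within the range of the H RNA-1 libraries for 35 of the 36 genes (all but Syt1), whereas replicates 1 and 3 both lay below that range for 33. Replicate 2 is therefore given apart for M throughout.

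**Figure D1:**
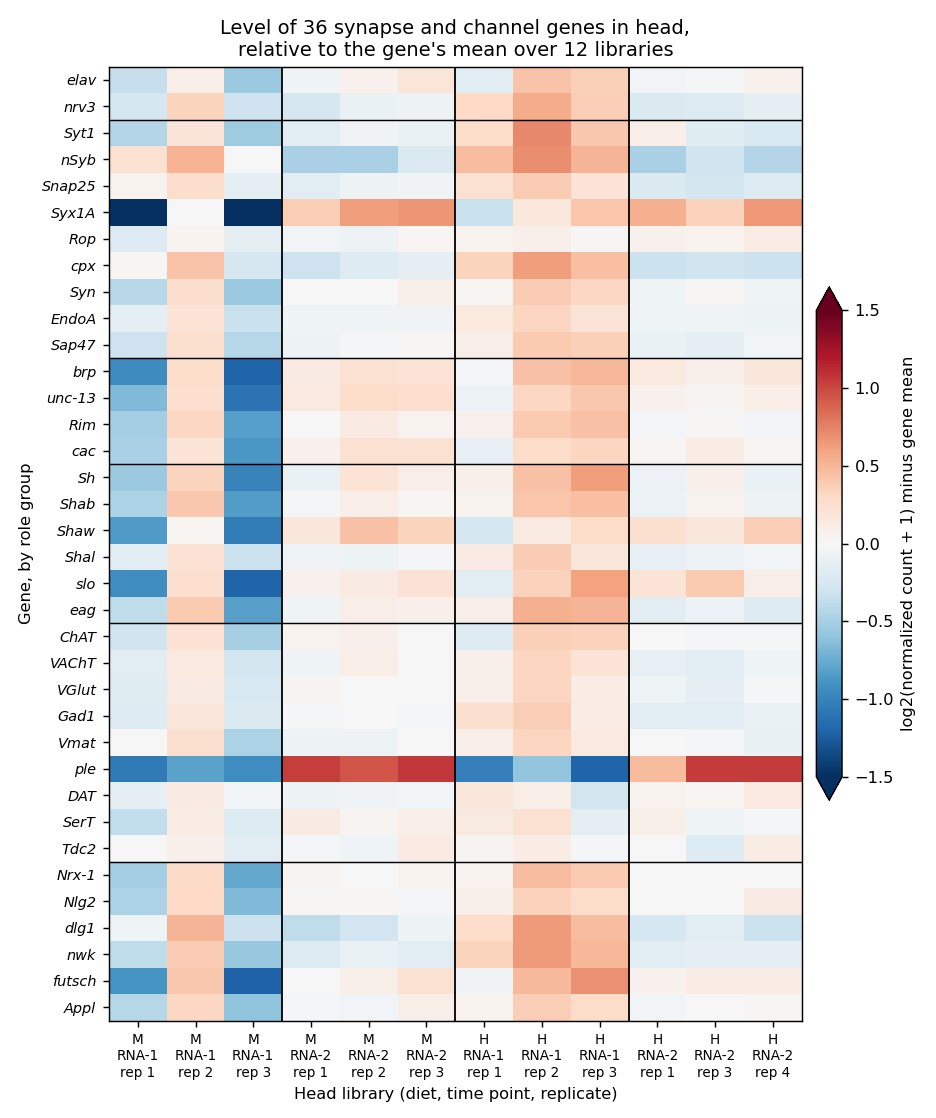
Level of each of the 36 genes (rows, by role group) in each head library (columns), as log2(normalized count + 1) minus the gene's mean over the 12 libraries (colour scale, clipped at -1.5 and 1.5). M RNA-1 replicates 1 and 3 are low for most genes, M RNA-1 replicate 2 resembles the H RNA-1 libraries, and ple is low in all 6 RNA-1 and high in all 6 RNA-2 libraries.

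The spread within M RNA-1 was largest for some of the longest transcripts. Replicate 2 exceeded the mean of the other M RNA-1 libraries by 2.73-fold for futsch (median transcript 20736 bases), 2.54-fold for brp (9557.5 bases) and 2.18-fold for unc-13 (10276 bases). Across the 36 genes the correlation of log2 length with the log2 of this ratio was 0.533, a description across genes measured in the same 3 libraries. The ratio did not follow length in every gene: Syx1A (2639 bases) had the highest ratio, slo (4896 bases) had 2.466, and VAChT (7098 bases) had only 1.285. No other correlate was computed.

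**Figure D2:**
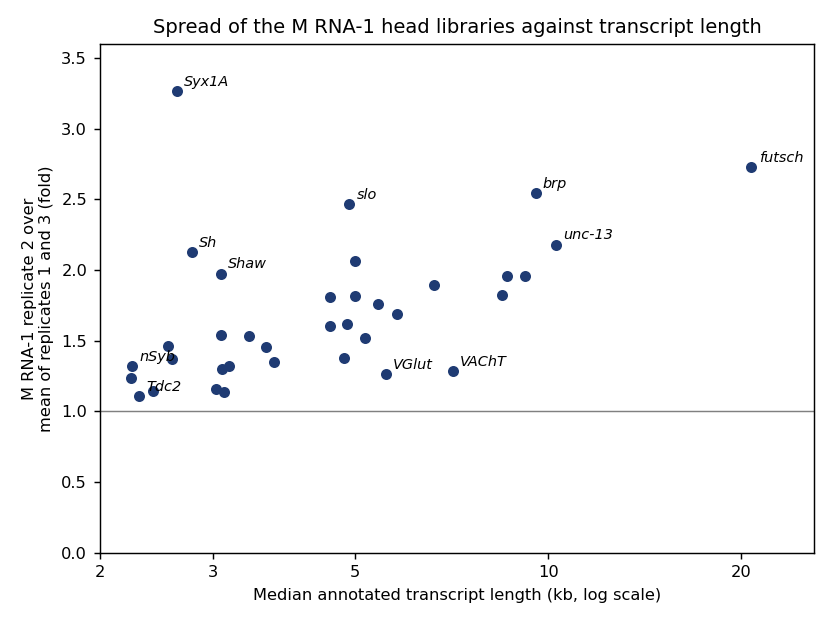
M RNA-1 replicate 2 over the mean of M RNA-1 replicates 1 and 3 (y axis, fold) against the median annotated transcript length (x axis, kb, log scale) for the 36 genes, 1 point per gene, with the grey line at 1. All points lie above 1, and they range from 1.11 for Tdc2 to 3.27 for Syx1A.

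In H heads the limma test called 8 of the 36 genes lower at RNA-2 than at RNA-1 (nSyb, cpx, Snap25, nrv3, dlg1, Gad1, nwk and Syt1) and 1 higher (ple, which encodes tyrosine hydroxylase). Over all 11197 tested genes, 8.56% were called lower and 11% higher. Of the 36 genes 31 had a negative change and 5 a positive one, with a median of -0.27 against -0.01 over all genes tested. For 20 of the 36, all 3 RNA-2 libraries lay below all 3 RNA-1 libraries, against 21.5% of all genes tested. Only ple had all RNA-2 libraries above all RNA-1 libraries, against 20.9%. The 13 genes with a median transcript of 5 kb or longer all had negative changes, with a median of -0.27, whereas the 869 tested genes of that length had a median of 0.00. None of those 13 was called. The number called lower was 5 and 3 without H RNA-1 replicate 1 or 2, 3, 4 and 4 without H RNA-2 replicate 1, 3 or 4, and 18 without M RNA-1 replicate 2, which shares the estimate of spread. Over all genes tested these fits called 633 and 577, 637, 628 and 627, and 1493 lower, against 958 with all libraries. Dividing by library totals, which raised the median change of all genes to 0.16, left 3 called lower and 1 higher, against 505 and 2378 of all 11213 genes tested.

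In M heads the 3-library comparison gave a mixed picture. The test called ple, Syx1A and Shaw higher and nSyb lower, while 15.8% of all genes tested were called higher and 16.1% lower. These were also the only members whose M groups did not overlap, 3 higher and 1 lower, against 21% and 21.3% of all genes tested. The changes of 30 of the 36 genes were positive, with a median of 0.24 against 0.02 over all genes tested. The 13 members with a median transcript of 5 kb or longer had a median of 0.31. Over the 869 tested genes of that length the median was 0.52, and 48.1% were called higher. The 23 shorter members had a median of 0.06, against 0.13 over tested genes of 2 to 5 kb. Against replicate 2 alone, the M RNA-2 mean was lower for 33 genes and higher for 3 (ple, Syx1A and Shaw), with a median log2 ratio of -0.26. Against replicate 1 it was higher for 31 genes (median 0.38) and against replicate 3 for 34 (median 0.49). With replicates 1 and 3 left out, limma called 6 genes lower (nSyb, cpx, Snap25, nrv3, dlg1 and nwk) and 1 higher (ple) in M, which assumes that the lone M RNA-1 library varies like the other groups. With replicate 2 left out instead, it called 25 higher and 1 lower, against 3031 higher and 2827 lower of all 11169 genes tested. With only replicate 3 left out it called 2 higher and 2 lower, against 951 and 1101 of 11154. Dividing by library totals, which raised the median change of all genes to 0.29, gave 19 higher and 0 lower, against 4604 and 606 of all 11213 genes tested. The direction of most M changes thus differed with the M RNA-1 library used.

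**Figure D3:**
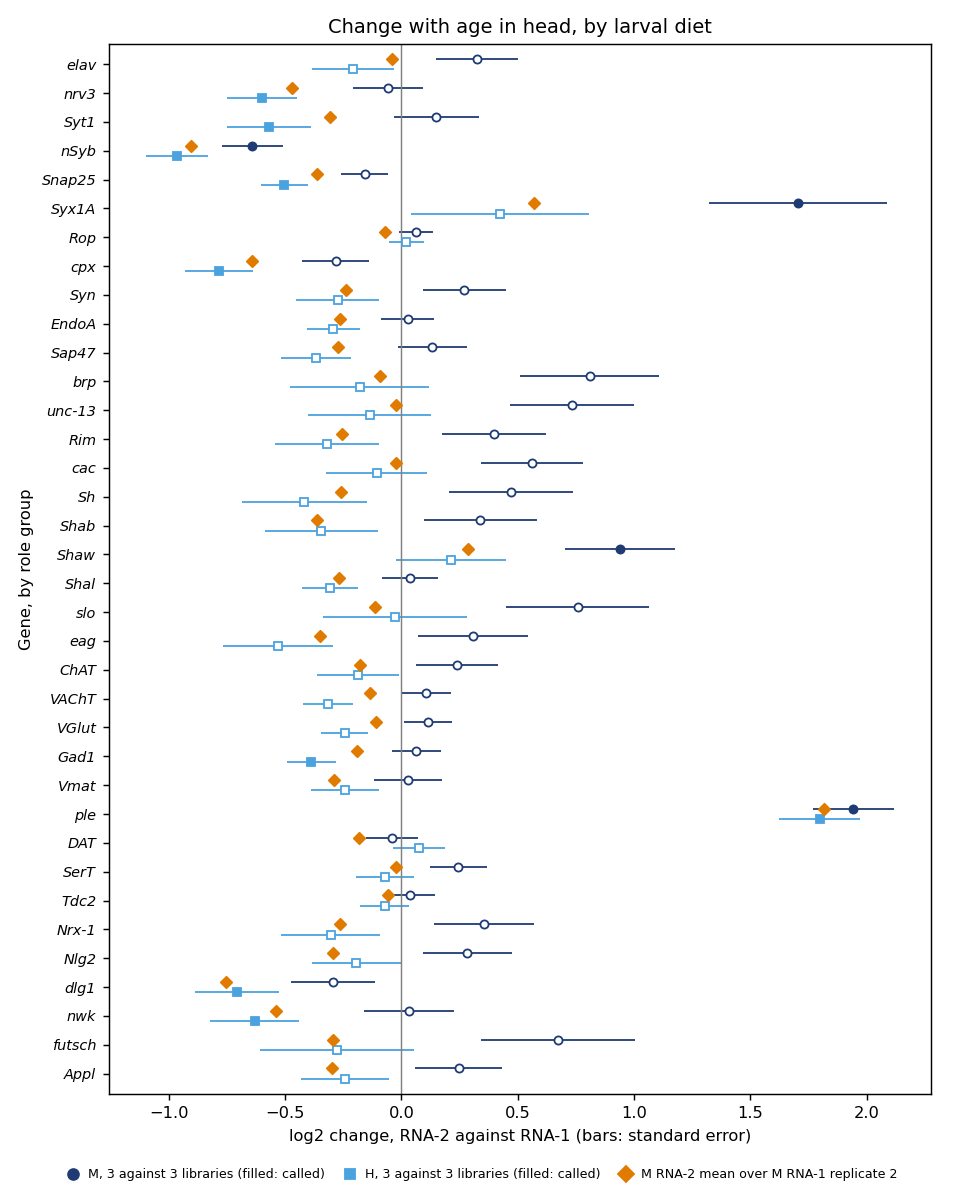
Change with age in head for the 36 genes (rows, by role group), as log2 change of RNA-2 against RNA-1 (x axis) in M (circles) and H (squares), 3 against 3 libraries, with standard errors as bars and filled symbols for calls at an adjusted p under 0.05. Diamonds give the M RNA-2 mean over M RNA-1 replicate 2, a single library that was relatively higher in long transcripts than M RNA-2. They lie left of 0 for 33 genes, and the H changes lie left of 0 for 31.

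Among the proteins that carry out fusion, nSyb, the neuronal synaptobrevin and SNARE of the vesicle, fell most. Its gene lies at chr3L:1630348-1637752 (BDGP6, Ensembl release 115, minus strand). In H it measured 57053, 67104 and 58626 at RNA-1 and 29585, 33515 and 30521 at RNA-2. In M it measured 48296, 59056 and 41113 at RNA-1 and 29467, 29480 and 35656 at RNA-2. The RNA-1 and RNA-2 libraries did not overlap in either diet. The change was -0.96 (SE 0.13, limma adjusted p = 0.000425) in H and -0.64 (SE 0.13, adjusted p = 0.00581) in M, and the M RNA-2 mean over replicate 2 alone gave -0.91. Dividing by library totals ended the M call.

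Complexin (cpx), which clamps the assembled SNAREs, and Snap25, a SNARE of the plasma membrane, fell in H as well. cpx measured 62673, 76383 and 68019 at H RNA-1 and 39758, 40509 and 39609 at H RNA-2. The H change of cpx was -0.78 (SE 0.14, limma adjusted p = 0.00277). In M, cpx measured 50092, 66689 and 41696 at RNA-1 and 40012, 43299 and 44713 at RNA-2, so replicates 1 and 2 lay above the RNA-2 libraries and replicate 3 lay among them. Snap25 measured 10178, 11308 and 10018 at H RNA-1 and 7484, 7165 and 7560 at H RNA-2, a change of -0.50 (SE 0.10, adjusted p = 0.00438). In M it measured 9047, 10466 and 7918 at RNA-1 and 7733, 8289 and 8412 at RNA-2, with replicate 2 again the highest. The falls of nSyb, cpx and Snap25 in H were called under all 24 alternative settings.

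Syt1, the calcium sensor, measured 28421, 38690 and 31231 at H RNA-1 and 25266, 20744 and 20077 at H RNA-2, which did not overlap. Its H change of -0.57 (SE 0.18, limma adjusted p = 0.0485) was close to the threshold and was called under only 9 of the 24 alternatives. Syx1A, syntaxin, the plasma membrane partner of Snap25 (chr3R:24101600-24105763, minus strand), had a higher level at RNA-2 in M. It measured 888, 3078 and 997 at M RNA-1 and 4006, 4794 and 4913 at M RNA-2, a change of 1.70 (SE 0.38, adjusted p = 0.00901). Replicate 2 stood 3.27-fold above the mean of replicates 1 and 3, and without those the change was 0.56 and was not called. In H it measured 2459, 3463 and 4129 at RNA-1 and 4476, 3918 and 4839 at RNA-2, which overlapped, with a change of 0.42 (SE 0.38, adjusted p = 0.525).

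Rop, the Sec1/Munc18 protein that binds syntaxin, was the steadiest of this group, between 10053 and 12332 over the 12 libraries, with changes of 0.06 in M and 0.02 in H (SE 0.07 each). Synapsin (Syn), endophilin (EndoA, which acts in vesicle recycling) and the vesicle-associated Sap47 had H changes of -0.27, -0.29 and -0.37 with adjusted p of 0.346, 0.105 and 0.117 in limma. For these genes all H RNA-2 libraries lay below all H RNA-1 libraries, yet none passed the test. The M changes of these genes were 0.27, 0.03 and 0.13, and replicate 2 alone gave -0.24, -0.26 and -0.27.

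**Figure D4:**
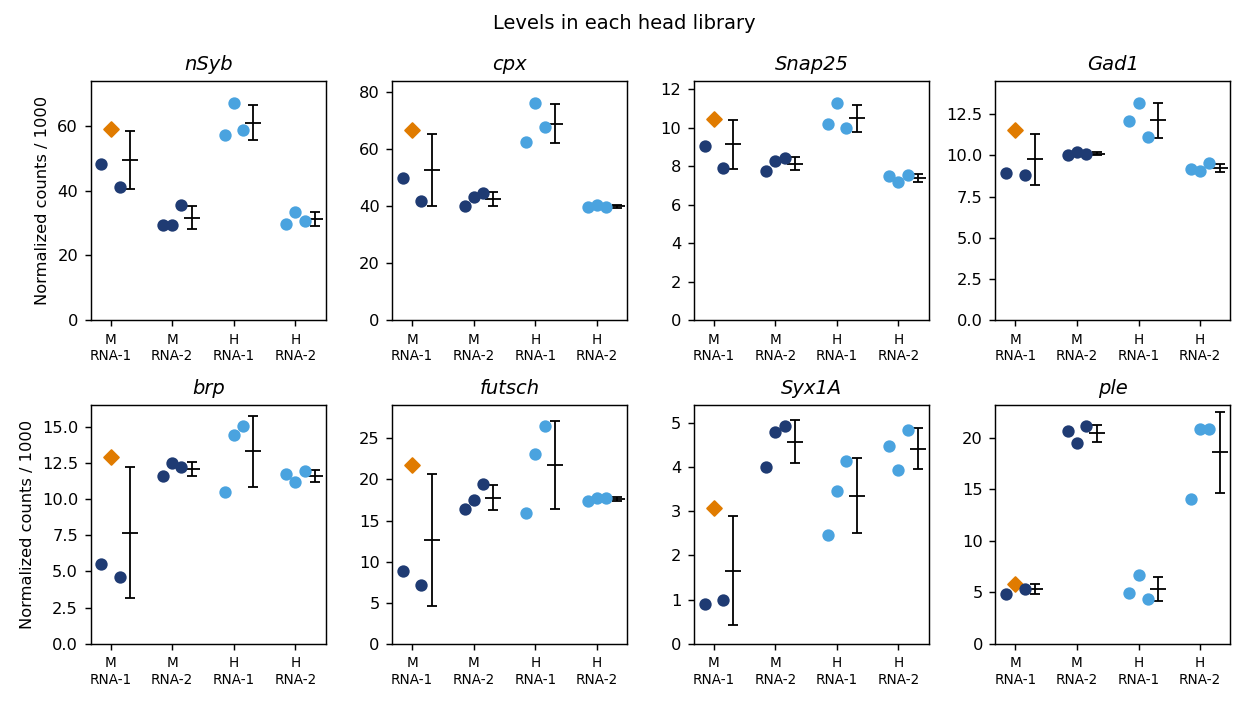
Normalized counts (y axis, divided by 1000) of 8 genes in each head library, by diet and time point (x axis), with M libraries dark, H libraries light and M RNA-1 replicate 2 as an orange diamond; the dash and bar beside each group give its mean and SD (n = 3). For nSyb the RNA-1 points lie above the RNA-2 points in both diets, for ple they lie below them in both, and for brp and futsch M RNA-1 replicates 1 and 3 lie below every other library.

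None of the active zone genes was called in either diet. Bruchpilot (brp), the ELKS/CAST-family scaffold of the active zone, measured 5514, 12880 and 4610 at M RNA-1 and 11563, 12466 and 12219 at M RNA-2. At H RNA-1 brp measured 10489, 14421 and 15017 and at H RNA-2 11730, 11152 and 11943. Replicates 1 and 3 of M RNA-1 lay below the other 10 libraries, and both diets' groups overlapped. The change of brp was 0.81 (SE 0.30, limma adjusted p = 0.0573) in M and -0.18 (SE 0.30, adjusted p = 0.759) in H, and replicate 2 alone gave -0.09.

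The same spread was seen for unc-13, the vesicle-priming factor, which measured 25193, 47591 and 18496 at M RNA-1 and 44371, 48386 and 47537 at M RNA-2. In H, unc-13 measured 37475, 49683 and 52804 at RNA-1 and 41910, 41214 and 42846 at RNA-2. Rim, which tethers vesicles near calcium channels, and cacophony (cac), the presynaptic calcium channel subunit, had M changes of 0.40 and 0.56 and H changes of -0.32 and -0.11. For Rim and cac in M, replicate 2 alone gave -0.25 and -0.02. Of the 4 active zone genes only Rim had H groups that did not overlap (8894, 11184 and 11586 against 8327, 8604 and 8298). Adjusted p of the 4 genes in H lay between 0.391 and 0.813.

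Of the 6 potassium channels, Shaw, a Kv3 channel, was the only one called. It measured 2184, 4039 and 1909 at M RNA-1 and 4440, 5363 and 4993 at M RNA-2, so replicate 2 lay close to the lowest RNA-2 library. The M change was 0.94 (SE 0.24, limma adjusted p = 0.0142), and it was 0.28 and not called without replicates 1 and 3. The call was also lost in 5 other alternatives, 3 of which left out 1 M library (RNA-1 replicate 1, RNA-1 replicate 3 or RNA-2 replicate 2). In H, Shaw measured 3285, 4346 and 4780 at RNA-1 and 4658, 4453 and 5121 at RNA-2, with a change of 0.21 (SE 0.24).

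The other channels had positive changes in M and negative ones in H. The delayed rectifier Shab, the A-type channels Sh (Shaker, the founding Kv1 channel) and Shal (Kv4), the EAG-type eag and the calcium-activated slo changed by 0.34, 0.47, 0.04, 0.31 and 0.76 in M, and by -0.34, -0.42, -0.31, -0.53 and -0.03 in H. eag measured 4597, 6206 and 6122 at H RNA-1 and 3831, 4023 and 3762 at H RNA-2, which did not overlap, although the adjusted p was 0.155. slo was the most variable of them: it measured 8120, 18312 and 6731 at M RNA-1 and 16105, 16813 and 17875 at M RNA-2. The M RNA-2 mean over replicate 2 alone was below 0 on the log2 scale for Shab, Sh, Shal, eag and slo (-0.36, -0.26, -0.27, -0.35 and -0.11).

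Among the transmitter genes ple, which encodes the tyrosine hydroxylase that makes the precursor of dopamine, rose in both diets. Tyrosine hydroxylase is also used outside neurons, in the cells that harden and darken the cuticle. The gene lies at chr3L:6713356-6719525 (minus strand). It measured 4854, 5805 and 5318 at M RNA-1 and 20722, 19482 and 21122 at M RNA-2, and 4952, 6680 and 4391 at H RNA-1 and 14061, 20913 and 20839 at H RNA-2. All RNA-2 libraries lay above all RNA-1 libraries. The change was 1.94 (SE 0.17, limma adjusted p = 3.7e-05) in M and 1.80 (SE 0.17, adjusted p = 4.06e-05) in H. M RNA-1 replicate 2 alone gave 1.82, and both calls held under all 24 alternatives. For this gene the M RNA-1 libraries lay close together, with replicate 2 at 1.14 times the mean of the others.

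The other genes of dopamine, serotonin and octopamine handling were not called. Vmat, the vesicular monoamine transporter, measured 14774, 17276 and 15207 at H RNA-1 and 13709, 13453 and 12736 at H RNA-2, a change of -0.24 (SE 0.15, limma adjusted p = 0.307), and changed by 0.03 in M. The dopamine transporter DAT changed by -0.04 in M and 0.08 in H, the serotonin transporter SerT by 0.25 and -0.07, and Tdc2, the tyrosine decarboxylase of octopamine and tyramine neurons, by 0.04 and -0.07. DAT, SerT and Tdc2 had the lowest levels per kilobase of transcript of the 36 genes (248, 343 and 163 normalized counts per kb as the mean of the 12 libraries), against 19295 for nSyb and 14091 for cpx at the upper end.

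For the fast transmitters, Gad1, the glutamate decarboxylase that makes GABA, fell in H. It measured 12099, 13202 and 11094 at H RNA-1 and 9161, 9073 and 9532 at H RNA-2, a change of -0.39 (SE 0.11, limma adjusted p = 0.0243) that was called under 16 of 24 alternatives. In M it measured 8927, 11536 and 8811 at RNA-1 and 9998, 10234 and 10117 at RNA-2, with replicate 2 above and the others below all RNA-2 libraries. VAChT, the vesicular acetylcholine transporter, and VGlut, the vesicular glutamate transporter, had H groups that did not overlap and changes of -0.32 (adjusted p = 0.0642) and -0.24 (adjusted p = 0.128). VAChT measured 6758, 7972 and 7367 at H RNA-1 and 5897, 5709 and 6107 at H RNA-2. VGlut measured 7560, 8950 and 7743 at H RNA-1 and 6860, 6546 and 7027 at H RNA-2. ChAT, the choline acetyltransferase, changed by -0.19 (SE 0.18) in H. In M, ChAT, VAChT and VGlut changed by 0.24, 0.11 and 0.11, and replicate 2 alone gave -0.18, -0.13 and -0.11. ChAT and VAChT start at the same base (chr3R, position 18705501, plus strand), so reads from the shared start cannot be told apart between them.

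Of the general neuronal genes, nrv3, a neuronal beta subunit of the sodium-potassium pump, fell in H. It measured 29573, 35331 and 31010 at H RNA-1 and 20594, 20756 and 21776 at H RNA-2, a change of -0.60 (SE 0.15, limma adjusted p = 0.0156). In M nrv3 measured 19868, 30128 and 19277 at RNA-1 and 20142, 22359 and 22677 at RNA-2. elav, an RNA-binding protein used as a marker of all neurons, measured 6101, 9133 and 8680 at H RNA-1 and 6599, 6686 and 7107 at H RNA-2. The elav groups overlapped in both diets, and the changes were -0.21 (SE 0.18, adjusted p = 0.489) in H and 0.33 (SE 0.18, adjusted p = 0.17) in M. For elav in M, replicate 2 alone gave -0.04.

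In the adhesion, scaffold and cytoskeleton group, dlg1 (Discs large, the PSD-95 homologue of the postsynaptic side) and nwk (Nervous wreck, an F-BAR and SH3 protein of endocytosis at the nerve terminal) fell in H. dlg1 measured 18304, 23570 and 20860 at H RNA-1 and 12599, 13490 and 12173 at H RNA-2, a change of -0.71 (SE 0.18, limma adjusted p = 0.0173). nwk measured 12678, 15653 and 14214 at H RNA-1 and 9061, 9161 and 9142 at H RNA-2, a change of -0.63 (SE 0.19, adjusted p = 0.0395), and was called under 11 of 24 alternatives. In M, dlg1 measured 14511, 21604 and 12171 at RNA-1 and 11611, 12452 and 14344 at RNA-2, and replicate 2 alone gave -0.75. For nwk in M the 3-library change was 0.03 and replicate 2 alone gave -0.54.

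The other genes of the group were not called. Nrx-1 (neurexin), Nlg2 (a neuroligin), Appl (the fly homologue of the amyloid precursor protein) and futsch (the MAP1B homologue that binds microtubules) had H changes of -0.30, -0.19, -0.24 and -0.28. Their M changes were 0.36, 0.28, 0.25 and 0.67, and replicate 2 alone gave -0.26, -0.29, -0.30 and -0.29. futsch measured 8859, 21808 and 7137 at M RNA-1, 16424, 17523 and 19424 at M RNA-2, 15951, 23047 and 26458 at H RNA-1 and 17322, 17792 and 17802 at H RNA-2. M RNA-1 replicates 1 and 3 were the lowest of the 12 libraries for futsch, and the highest value was an H RNA-1 library.

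The diets were then compared directly. At RNA-2 the H and M heads were close: differences (H minus M, log2) ranged from -0.19 to 0.13 with a median of -0.06, and the 95% intervals of the 36 genes lay between -0.90 and 0.79. No member was called by limma, none had an unadjusted p under 0.05, and 0.0357% of all genes tested were called higher and 0.161% lower in H. At RNA-1, 35 of the 36 genes were higher in H, with a median difference of 0.47 against -0.02 over all genes tested. The 13 members with a median transcript of 5 kb or longer had a median of 0.54, against 0.50 over tested genes of that length. The 23 shorter members had a median of 0.37, against 0.13 over tested genes of 2 to 5 kb. None of the 36 was called by limma (smallest adjusted p 0.0544, for Syt1), although 28 had an unadjusted p under 0.05. So had 3530 of all 11197 genes tested and 632 of the 869 of 5 kb or longer. Of all genes tested 0.643% were called higher and 2.75% lower. Without M RNA-1 replicates 1 and 3 the median difference was 0.01, with 20 genes higher and 16 lower in H. Without replicate 2, 33 genes were called higher in H, while 2477 of all 11169 genes tested were called higher and 2214 lower.

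Whether the change with age differed between the diets was tested as the H change minus the M change. This difference was negative for 35 of the 36 genes, with a median of -0.50, but limma called none (smallest adjusted p 0.213, for Gad1), with 15 at an unadjusted p under 0.05. An unadjusted p under 0.05 was found for 2027 of all 11197 genes tested and for 260 of the 869 of 5 kb or longer. Over all genes tested 0.0804% were called in the positive and 0.0714% in the negative direction. The 13 members with a median transcript of 5 kb or longer had a median of -0.66, against -0.52 over tested genes of that length. The 23 shorter members had a median of -0.42, against -0.13 over tested genes of 2 to 5 kb. As no member was called for this difference, the calls in H that were absent in M do not show that the diets differed. Without M RNA-1 replicate 2, 31 of the 36 were called negative, while 2016 of all 11169 genes tested were called negative and 1575 positive. Without replicates 1 and 3 the median was -0.06. The M and H changes share no library.

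A further 89 synapse genes were listed by function, also with earlier results of these data known, and 88 of them were found and tested in head. In H 17 were called lower and 1 higher (median -0.22), and in M 13 lower and 7 higher (median 0.20). These counts are 19.3% lower and 1.14% higher in H, against 8.56% and 11% of all genes tested, and 14.8% lower and 7.95% higher in M, against 16.1% and 15.8%. Without M RNA-1 replicates 1 and 3 the counts were 38 lower and 1 higher in H and 17 lower and 1 higher in M, and without M RNA-1 replicate 2 they were 33 lower and 1 higher in H and 12 lower and 57 higher in M. Over all 11169 genes tested without M RNA-1 replicate 2, 1493 were lower and 1580 higher in H and 2827 lower and 3031 higher in M. Division by library totals gave 7 lower and 2 higher in H and 5 lower and 49 higher in M. Over all 11213 genes tested it gave 505 lower and 2378 higher in H and 606 lower and 4604 higher in M. Removing the trend on transcript length gave 46 lower and 2 higher in H and 27 lower and 4 higher in M, and the replicate block left 8 lower in H. Over all genes tested the length setting gave 1565 lower and 1730 higher in H and 1731 lower and 1587 higher in M. The block left 534 of all genes lower in H. Histamine is the transmitter of fly photoreceptors. Hdc, the histidine decarboxylase that makes histamine, fell by 1.20 in M heads and 1.45 in H heads, and t (tan), which frees histamine from its storage conjugate, fell by 1.45 and 1.62. The histamine-gated chloride channels HisCl1 and ort fell by 0.96 and 0.27 in M heads and by 0.83 and 0.41 in H heads. In contrast e (ebony), the glial enzyme that makes the conjugate, rose by 0.36 in M and 0.68 in H; it was chosen after its values were seen. Hdc, t, HisCl1 and ort fell alongside the photoreceptor markers given above, whose part in them was not tested.

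The excitatory amino acid transporter family member Eaat2 fell by 0.82 in M and 1.23 in H. Among release factors Syngr (synaptogyrin, a vesicle membrane protein) fell by 0.45 and 0.71, comt (the NSF ATPase that takes SNARE complexes apart) by 0.29 and 0.47, and alphaSnap, which brings NSF to the SNAREs, by 0.26 and 0.22. The nicotinic acetylcholine receptor subunit nAChRbeta2 fell by 0.34 in M heads and 0.40 in H heads, and the ERG-type potassium channel sei by 0.24 and 0.30. Elk, another potassium channel of the EAG family, rose by 0.48 in M, whereas all 14 of the further channels had negative changes in H. Ih, the hyperpolarization-activated channel, fell by 0.49 in H, as did the neuroligin Nlg1, by 0.70. In M all 3 of the further adhesion genes, Nlg1 among them, had positive changes (0.05 to 0.57). Of the 14 channels 1 was called higher and 1 lower in M, and 0 higher and 2 lower in H. Of the 3 adhesion genes 0 were called in M and 1 was called lower in H. The M changes of these genes use all 3 M RNA-1 libraries and were not set against replicate 2 alone. In M, 4 of the 34 receptors were called higher and 4 lower, and 1 of the 24 release genes higher and 3 lower. Over all genes tested 15.8% were called higher and 16.1% lower in M.

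In fat body, the abdominal tissue that can also hold nerves and other cells, the members were listed at far lower levels, with a median over the 36 genes of 398.6 normalized counts against 10320 in head (the tables were normalized separately). There limma called 4 of 36 lower in M (Nrx-1, elav, slo and Vmat) and none higher, while 5.07% of all 10850 fat body genes tested were called lower and 8.52% higher. Of the tested genes of 5 kb or longer 11.3% were called lower and 1.75% higher in M. Of those of 2 to 5 kb it was 6.13% and 6.06%. In H it called 5 higher (SerT, cac, unc-13, Syn and cpx) and 1 lower (Nrx-1), while 6.55% of all genes tested were called higher and 8.76% lower. The H change minus the M change was positive for 32 members and negative for 4 (median 0.70), and limma called 0 of them. Of all genes tested 0.267% were called positive and 1.75% negative. Calls in 1 diet alone thus do not show that the diets differed in fat body.

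Nrx-1 was the only gene called in both diets. It measured 843, 765 and 717 at M RNA-1 and 337, 361 and 436 at M RNA-2, and 602, 638 and 599 at H RNA-1 and 351, 427 and 299 at H RNA-2. The groups did not overlap, with changes of -1.04 (SE 0.15, limma adjusted p = 0.00193) in M and -0.79 (SE 0.15, adjusted p = 0.00557) in H. SerT rose in H by 2.19 (SE 0.32, adjusted p = 0.00165) from low counts, 15.2, 11.6 and 11.0 at RNA-1 against 54.2, 65.8 and 61.8 at RNA-2. The rise of cac in H was 1.12 (SE 0.22, adjusted p = 0.00745), from 281, 181 and 173 to 542, 485 and 346. The rises of Syn (0.99), cpx (0.56) and unc-13 (0.55) in H had adjusted p of 0.0362, 0.0499 and 0.0192. In M, elav fell by 0.77, slo by 0.74 and Vmat by 1.04, and ple, called in head, ranged from 689 to 5212 at M RNA-2 and from 192 to 350 at H RNA-2 and was not called.

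The summed level of 5 germline markers (vas, osk, orb, aub and grk) in fat body was 9980 and 11154 in H RNA-2 replicates 1 and 3 against 1257 in replicate 2 and 1889 to 5175 at H RNA-1, and 5234 to 8269 at M RNA-1 against 1010 to 1326 at M RNA-2. Without H RNA-2 replicates 1 and 3, 2 members were called higher and none lower in H. The 5 higher also became 2 without H RNA-1 replicate 2 or 4, and 3 without M RNA-1 replicate 3 or any 1 of the M RNA-2 libraries, and 2 were lower without H RNA-1 replicate 2 or M RNA-2 replicate 2. The number of all fat body genes called higher in H, 711 otherwise, was 563 and 431 without H RNA-1 replicate 2 or 4. unc-13 was among the members that the ovary lists at high levels, and the part of germline RNA in its fat body values was not tested.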

How the data were processed

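RNA from head, fat body and ovary was sequenced by the authors from stranded mRNA libraries. Per the submitters' processing notes, counts were estimated with kallisto 0.46.1 on BDGP6 and handled with DESeq2 1.28.1 in R 4.0.1. The deposited signal values are these counts per gene after normalization by the authors, listed by them for expressed genes under a filter not given in the sources used here. Columns with the authors' own fold changes and p-values were not used. Whole reads could not be recovered, because the step between low values differed between genes, so no count model was fitted and depth before normalization was not used.

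Groups came from the sample labels. Within each tissue, genes reaching 10 normalized counts in 3 or more of 12 libraries entered limma 3.58.1 (statmod 1.5.0, R 4.3.3) as log2(value + 1), with the 4 groups as the only factor, a variance trend and robust variances. Fold changes on this scale understate changes of low genes. Transcript lengths are medians over annotated transcripts of Ensembl release 115, and 99.34% of listed head genes had one. Of 172 symbols in all lists 171 matched a gene identifier; nos and Ca-beta were not analysed here. Ovary gave levels only.

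The members and lists were chosen with earlier results of these data known. Every member may be named; values in every library go to the members of each role group with the smallest p, and other synapse genes are named by the smallest p, up to 3 per function. Alternatives were limma without trend, quantile normalization, division by library totals, other filters (none, at least 50) and pseudocounts (0.5, 5), fits on only the libraries compared, a replicate block, an adjusted p under 0.01, removal of each library's lowess trend on transcript length (span 0.4), and leaving out each library, or M RNA-1 replicates 1 and 3 together. Leaving out fat body H RNA-2 replicates 1 and 3 together was chosen after seeing the data. A first version, which also left out fat body M RNA-1 replicate 1, was replaced once the germline marker sum of M RNA-1 replicate 2 was seen to exceed that of replicate 1, and both are given.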

Additional observations from a re-analysis of the deposited data

How the results depend on the processing

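In M heads, the counts of members called higher and lower (3 and 1) became 19 and 0 with division by library totals, 3 and 13 with the length trend removed, 4 and 2 with quantile normalization, and 1 and 6 without M RNA-1 replicates 1 and 3 together. Leaving out 1 library at a time gave 2 to 25 higher and 1 to 2 lower, with 25 only without M RNA-1 replicate 2. Over all head genes tested, 1774 were called higher and 1807 lower in M. These became 4604 and 606 with division by totals, 1587 and 1731 with the length trend removed and 1579 and 1951 with quantile normalization. Without M RNA-1 replicate 2 they were 3031 and 2827. In H heads, the 8 members called lower became 3 with division by totals, 3 at an adjusted p under 0.01, 18 with the length trend removed, 20 without M RNA-1 replicates 1 and 3 together and 13 from the H libraries alone. Leaving out 1 library gave 3 to 18 lower, and ple was the 1 member higher each time. The number of all head genes called lower in H, 958 otherwise, was 505 with division by totals and 497 at an adjusted p under 0.01. It was 1565 with the length trend removed and 1493 without M RNA-1 replicate 2. Leaving out 1 library gave 0 to 31 members with a more negative H than M change and 0 to 33 higher in H at RNA-1, above 0 only without M RNA-1 replicate 2. In that fit the numbers over all 11169 genes tested were 2016 and 2477. With the length trend removed, 12 M changes were positive and 24 negative (30 and 6 otherwise), and without M RNA-1 replicates 1 and 3 together 3 were positive and 33 negative. Of the changes that turned, those called under the alternative were, with the length trend removed, Syn (-0.18), EndoA (-0.20), Sap47 (-0.26), Rim (-0.24), eag (-0.36), VAChT (-0.44), VGlut (-0.31), Vmat (-0.32), nwk (-0.30) and futsch (-0.35), and, without M RNA-1 replicates 1 and 3, nwk (-0.54). Division by totals raised the median change of all head genes to 0.29 in M (0.02 otherwise) and 0.16 in H (-0.01 otherwise), where the members' medians were 0.51 and -0.10 with 33 positive M and 26 negative H changes. In fat body H, members higher and lower (5 and 1) became 7 and 1 with division by totals, 2 and 1 at an adjusted p under 0.01, 1 and 1 from the H libraries alone, and 2 and 0 when H RNA-2 replicates 1 and 3 were left out, also when M RNA-1 replicate 1 was left out with them (3 lower and 0 higher in M). Leaving out 1 library gave 2 to 5 higher and 1 to 2 lower in H, and 0 higher and 3 to 5 lower in M, where an adjusted p under 0.01 left 2 lower. Over all fat body genes, 711 of 10850 were called higher and 951 lower in H. With division by totals these were 3281 and 425 of 10847, and at an adjusted p under 0.01 they were 311 and 448. The cause of these differences was not tested.

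The numbers were not taken to pair the libraries: same-numbered libraries had correlations of their deviations of -0.125 to 0.0784 in head and, in fat body, -0.261 to 0.0687 in M and 0.118 and 0.244 in H. With the replicate block, 4 members were called lower in H heads, 1 higher and 0 lower in H fat body (5 and 1 without it), and 3 higher and 1 lower in M heads. Over all genes it called 534 lower in H heads, 356 higher and 455 lower in H fat body, and 1554 and 1523 in M heads. The diet by time difference needs all libraries and was not run on a subset. Depth before normalization is unknown here, and 3 pools per group limit the precision.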

Other observations

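In ovary 6 of the 36 genes were listed at a median of 1000 normalized counts or more, and 23 at a median under 100. The 6 were dlg1, unc-13, Rop, EndoA, Sap47 and Syx1A, of which dlg1, Rop and Syx1A also act in trafficking or cell polarity outside neurons. Over the 12 ovary libraries dlg1 ranged from 9151 to 11360, unc-13 from 7213 to 12217, Rop from 4918 to 6695 and Syx1A from 3108 to 4085. Some of their partners in the synapse were near the filter: Snap25 ranged from 5.24 to 18.6 and brp from 2.81 to 22.2. Others lay above it: cac ranged from 183 to 568, Nrx-1 from 127 to 382 and Syt1 from 24.0 to 110. No test was run in ovary, where 32 of the 36 genes passed the filter on low values.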
